A study of Mus musculus with 97 samples.

Results

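Elof1, Lig1 and Mplkip are 3 of the 19962 genes measured in captured regions of mouse brain, described here because each is tied to genome maintenance and because each stood above the probe background or had differed in an earlier look at these same data. The choice therefore used measured values: Elof1 had been called after DC in APOE3 cortex and between genotypes in cortex, and Mplkip after both drug regimens in APOE4 hippocampus. Those contrasts, and the others that share APOE3 vehicle cortex (for Elof1) or APOE4 vehicle hippocampus (for Mplkip), are given below as values without a test. The other contrasts are tested, but many of them share a group with a contrast through which the gene was chosen, so their tests are not fully independent of the choice. Of the 3 genes, Elof1 and Mplkip passed the low-count filter in both regions, and Lig1 passed it in cortex only.

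Elof1 is a small zinc-finger protein that travels with elongating RNA polymerase II and is needed for transcription-coupled repair, the branch of nucleotide excision repair that starts where a polymerase stalls on a damaged template. Lig1 is the DNA ligase that seals nicks between Okazaki fragments in replication and after excision repair. Mplkip is a nuclear protein whose human counterpart is mutated in a form of trichothiodystrophy without photosensitivity, a disorder of brittle hair that in other patients comes from mutations in the repair and transcription factor TFIIH. Doxorubicin traps type II topoisomerases on DNA and intercalates, cyclophosphamide gives rise to alkylated and cross-linked DNA, and docetaxel acts on microtubules. In the GRCm38 (mm10) annotation Elof1 lies on chromosome 9 at 22112986 to 22117195 on the minus strand, Lig1 on chromosome 7 at 13277175 to 13311426 on the plus strand, and Mplkip on chromosome 13 at 17695413 to 17699112 on the plus strand; all are protein-coding.

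The tissue came from older knock-in mice with human APOE3 or human APOE4, so every group, vehicle included, carried a human APOE allele. The regimens were DD, which joined docetaxel (10 mg/kg weekly) to doxorubicin (3 mg/kg weekly), DC, which joined cyclophosphamide (40 mg/kg weekly) to the same doxorubicin dose, and vehicle (equal parts dimethyl sulfoxide and phosphate-buffered saline), each as 2 intraperitoneal injections a week for 2 weeks. Regions of cortex and hippocampus were captured on 8 µm sections with the GeoMx Digital Spatial Profiler, which releases probe tags from a chosen area by ultraviolet light for sequencing. Crossing genotype, treatment and region gave 12 groups of 8 libraries, save APOE3 DD cortex with 9, for 97 in all. No arm received doxorubicin alone, so its part in either regimen cannot be told apart from that of its partner drug. The labels name no animal for any region, so regions may share an animal, and every p-value below, which is over regions, is then too small. All APOE4 libraries were collected on 1 plate and all APOE3 libraries on another, so genotype and plate cannot be told apart.

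Total counts ran from 21569 to 1850675 per library, with medians of 30580 in APOE3 and 61383 in APOE4. The negative probe, which matches no mouse transcript and measures background, had a median of 1.27 in APOE3 and 2.68 in APOE4 libraries. It was 5 or more in 13 libraries, all APOE4, among them 6 of the 8 of APOE4 DC hippocampus. Only 57 genes in cortex and 38 in hippocampus passed the low-count filter. Of the cell type markers looked at, Olig2, which specifies oligodendrocyte precursors, lay at 6.30 times the negative probe, while the other 3 genes of its list lay at 0.923 (Olig1), 0.934 (Pdgfra) and 0.977 (Cspg4) and the 4 markers of mature oligodendrocytes at or below 0.944. Of the excitatory neuron markers Slc17a7 was at 1.48 times and Nrgn at 1.21, and Camk2a and Snap25 at 0.948 and 0.923, and the 5 hippocampal markers lay at or below 0.977 times, so the defining markers of hippocampus were not detected at this depth. The highest proliferation marker was Pcna, at 0.947 times. In captured tissue, fewer cells of a type and less RNA per cell cannot be told apart.

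The level of the 3 genes over background is a description, since it is part of why they were chosen. In cortex the median ratio to the negative probe of the same library was 6.90 for Lig1 (rank 31 of 19962), 4.92 for Elof1 (rank 38) and 4.68 for Mplkip (rank 40). In hippocampus it was 4.12 for Elof1 (rank 34), 2.68 for Mplkip (rank 41) and 1.70 for Lig1 (rank 72). These ranks order probe signals over background and do not compare transcript numbers between genes. The genes were not above the negative probe everywhere: in the 49 cortex libraries Elof1, Lig1 and Mplkip exceeded it in 44, 46 and 44, and in the 48 hippocampus libraries in 41, 37 and 39.

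The other genes of their pathways, which were not chosen by their level, lay near background; that contrast follows from the choice and is no test. The 10 lists of DNA repair, replication, elongation and damage response genes held 144 other genes, of which 0 passed the low-count filter in either region and 0 had a median over 2 times the negative probe. Of the 144, 18 (12.5%) had a median ratio above 1, against 13.99% of all 19962 genes, and their median was 0.924 against 0.923. Among the other transcription-coupled repair genes the highest were Rbx1, a ring protein of cullin ubiquitin ligases, at 1.22, and Ercc8, the CSA subunit of the repair ligase, at 1.00. In core excision repair they were Xpa, a damage-verification factor, at 1.06 and the TFIIH subunit Gtf2h4 at 1.04. Of the other trichothiodystrophy genes the transfer RNA synthetases Cars and Aars came highest, at 0.976 and 0.941. The DNA nick sensor Parp1 was at 1.06, the replicative helicase subunit Mcm6 at 1.11 and the histone chaperone subunit Supt16 at 1.07. For lesions tied to the drugs, Tdp2, which removes trapped topoisomerase II from DNA ends, was at 1.12, Fancb of the crosslink pathway at 1.01, the end-joining factor Xrcc5 at 1.04, and Trp53, which encodes p53, at 1.03. With 0 of them past the filter, none was tested for a drug response.

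**Figure D1:**
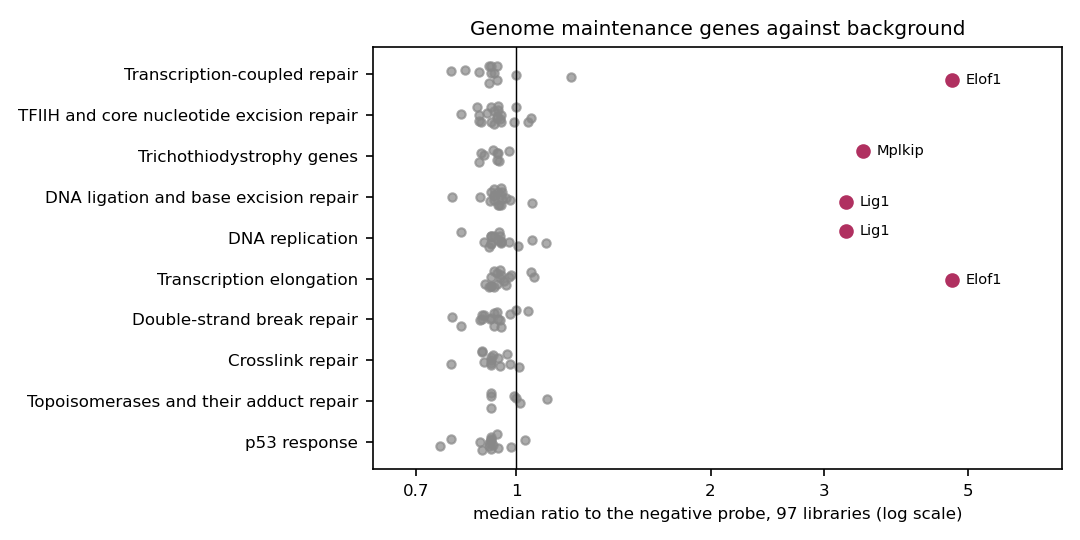
Median ratio to the negative probe over the 97 libraries (log scale) of each gene in 10 genome maintenance lists, 1 point a gene; the line marks a ratio of 1. Elof1, Lig1 and Mplkip (coloured; Elof1 and Lig1 each belong to 2 lists) were chosen with their level known; none of the other 144 genes passed the low-count filter.

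Elof1 had a higher median count in APOE4 than in APOE3 in both regions under all 3 treatments. Its counts per library in vehicle cortex were 1 to 6 in APOE3 (median 3) and 10 to 41 in APOE4 (median 17.5). The groups did not overlap in counts, which held for 8.77% of the 57 genes tested, Elof1 included. In this comparison 21.1% of the genes tested were called by edgeR. In DD cortex they were 1 to 17 (median 7) in APOE3 and 13 to 37 (median 27) in APOE4, which overlap. In DC cortex they were 1 to 43 (median 4.5) and 14 to 87 (median 46.5), where 1 APOE3 library with 43 counts lay inside the APOE4 range. In hippocampus the APOE3 counts were 2 to 9 with vehicle, 1 to 10 with DD and 1 to 5 with DC, and the APOE4 counts 11 to 30, 11 to 44 and 11 to 126. No APOE3 hippocampus library reached the lowest APOE4 count of its treatment. Such a gap was found for 7.89% of the 38 genes tested with vehicle, 23.7% with DD and 57.9% with DC, Elof1 included. These raw counts also carry the depth of the libraries: the counts of all tested genes had a median of 4563 per APOE4 library and 1889 per APOE3 library, and 5 APOE3 cortex and 7 APOE3 hippocampus libraries had Elof1 at the table's lowest value of 1, while 0 APOE4 libraries did.

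Scaled to the tested genes, Elof1 was higher in APOE4 in all 6 pairs of groups. Elof1 entered the fits of both regions mainly through APOE4. With vehicle, DD and DC its APOE3 medians were 3, 7 and 4.5 counts in cortex and 3, 5 and 1.5 in hippocampus. The filter asks for a minimum count of 10, scaled to library size. This direction was thus partly fixed by the filter, and the calls below are no independent evidence of it. With vehicle in hippocampus the difference was log2 1.33 (SE 0.40; 2.52-fold; edgeR quasi-likelihood test, Benjamini-Hochberg adjusted p = 0.0067), with all 8 APOE4 libraries above the APOE3 mean, in a comparison in which 39.5% of the genes tested were called. With DC in hippocampus it was log2 1.49 (SE 0.42; 2.82-fold; edgeR adjusted p = 0.00576; 21.1% of genes called), again with 8 of 8 above. That call ended without the libraries whose negative probe was 5 or more, which left 2 of the 8 APOE4 libraries (log2 0.34, edgeR adjusted p = 0.805). With DD in hippocampus it was log2 0.84 (SE 0.38, edgeR adjusted p = 0.24; 7.89% of genes called), and with DC in cortex log2 0.67 (SE 0.27, edgeR adjusted p = 0.0601; 24.6% of genes called); neither passed. The DC cortex value rested on APOE3 DC cortex 5, without which it was log2 1.28 (SE 0.31). In vehicle and DD cortex, contrasts through which Elof1 was chosen, the values were log2 1.77 (SE 0.37) and 1.21 (SE 0.28), and 21.1% of genes were called with DD too.

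Against vehicle, Elof1 gave no call in the 6 comparisons open to a test. In APOE4 cortex the differences were log2 -0.08 (95% interval -0.55 to 0.39) after DD and 0.23 (-0.22 to 0.68) after DC. In APOE3 hippocampus they were 0.28 (-0.67 to 1.24) and 0.21 (-0.89 to 1.31), with intervals wide enough to hold a 2-fold increase. In APOE4 hippocampus they were -0.21 (-0.82 to 0.40) after DD and 0.38 (-0.20 to 0.95) after DC. In APOE3 cortex, where Elof1 had been chosen, counts had medians of 3 with vehicle, 7 with DD and 4.5 with DC, and the fitted values were log2 0.48 (SE 0.43) and 1.33 (SE 0.41). The DC value was 0.72 (SE 0.45) without APOE3 DC cortex 5, which had 43 Elof1 counts where the other 7 had 1 to 10 and had the highest negative probe value of its group, 2.96.

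After DC in APOE4 hippocampus the direction for Elof1 depended on the scale. Its counts had a median of 32, against 15 with vehicle, while the negative probe had a median of 10.9 against 2.03. The median ratio of Elof1 to the negative probe was thus lower after DC, 3.38 against 6.71. Scaled to the negative probe the difference was log2 -1.27 (limma adjusted p = 0.00721), beside a median over the 38 genes tested of -1.44. On that scale the tested genes were lower after DC as a whole, and Elof1 slightly less so. The part of the background in these values was not tested.

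Lig1 counts in cortex ran from 1 to 26 per library in APOE3 and from 7 to 54 in APOE4. By group, the median was 5 with vehicle, 10 with DD and 5 with DC in APOE3, and 16.5, 22 and 27.5 in APOE4. The APOE4 groups were also tighter, with SDs of log2 CPM (CPM being scaled to the tested-gene counts) of 0.22 to 0.28, against 0.60 to 0.77 in APOE3. Each APOE3 group had lower counts and 1 library at the lowest value of 1, the APOE4 groups 0. The part of the low counts in this spread was not tested. Neither regimen gave a call: after DD the differences were log2 -0.20 (95% interval -0.69 to 0.29) in APOE3 and -0.02 (-0.41 to 0.38) in APOE4, and after DC -0.39 (-0.94 to 0.16) and 0.15 (-0.23 to 0.53). In APOE4 cortex these intervals leave out a 2-fold change of Lig1 in either direction; they rest on regions that may share animals and are then too narrow.

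Between genotypes Lig1 was 1.53-fold higher in APOE4 DC cortex (log2 0.61, SE 0.23, edgeR adjusted p = 0.0435, 8 of 8 libraries above the APOE3 mean). This call is a weak one: it ended under 7 of the 9 alternative settings, DESeq2 among them (log2 0.51, adjusted p = 0.14), and on leaving out any of 9 of the 16 libraries, with edgeR adjusted p values from 0.0207 to 0.0887. The values with vehicle and DD were log2 0.07 (SE 0.24) and 0.26 (SE 0.20), with edgeR adjusted p = 0.991 and 0.415.

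Lig1 had a lower level in hippocampus than in cortex. It passed the filter in cortex alone and entered the fit of all 12 groups through the groups in which it was high, so this direction was partly fixed by the filter, and the values are given without a test. Over the 6 pairs of groups the mean difference was log2 -0.49 (SE 0.12). By pair it was log2 -0.68 with vehicle, -0.96 with DD and 0.30 with DC in APOE3, and -0.78, -0.77 and -0.08 in APOE4. In this fit the DC pairs thus lay nearest to 0 or above it. That order turned in APOE4 with no low-count filter, at log2 -2.09 with DC against -1.50 with vehicle and -1.29 with DD. Scaled to the negative probe, which was 5 or more in 6 of the 8 APOE4 DC hippocampus libraries, the APOE4 DC value was -1.98. In APOE3 the lowest value over all settings was -0.89 with DC, against -1.30 with vehicle and lower still with DD. Whether the region difference with DC differs from the others was not tested. Scaled to the negative probe the mean was log2 -1.52, where the median of the 58 genes was -1.10, so that part of the lower ratio was common to the genes tested. The hippocampal counts of Lig1 were small, with group medians of 1.5 to 2.5 in APOE3 and 4.5 to 18.5 in APOE4.

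Because Lig1 did not pass the filter in hippocampus, its drug contrasts there come from the fit of all 19962 genes. They were log2 -0.75 (SE 0.49) for DD and -0.28 (SE 0.47) for DC in APOE3, and 0.09 (SE 0.36) and -0.66 (SE 0.35) in APOE4. None had an edgeR adjusted p below 0.609. In the same fit the medians over the 38 genes that passed the filter were log2 -0.28 after DD and -0.89 after DC in APOE3. In APOE4 they were 0.22 and -0.97. After DC the Lig1 values were thus less low than the median of those genes. The comparison is of unlike genes, since they had passed the filter and Lig1 had not. Lig1 was at the lowest value of 1 in 2 APOE3 vehicle and 3 APOE3 DC hippocampus libraries.

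**Figure D2:**
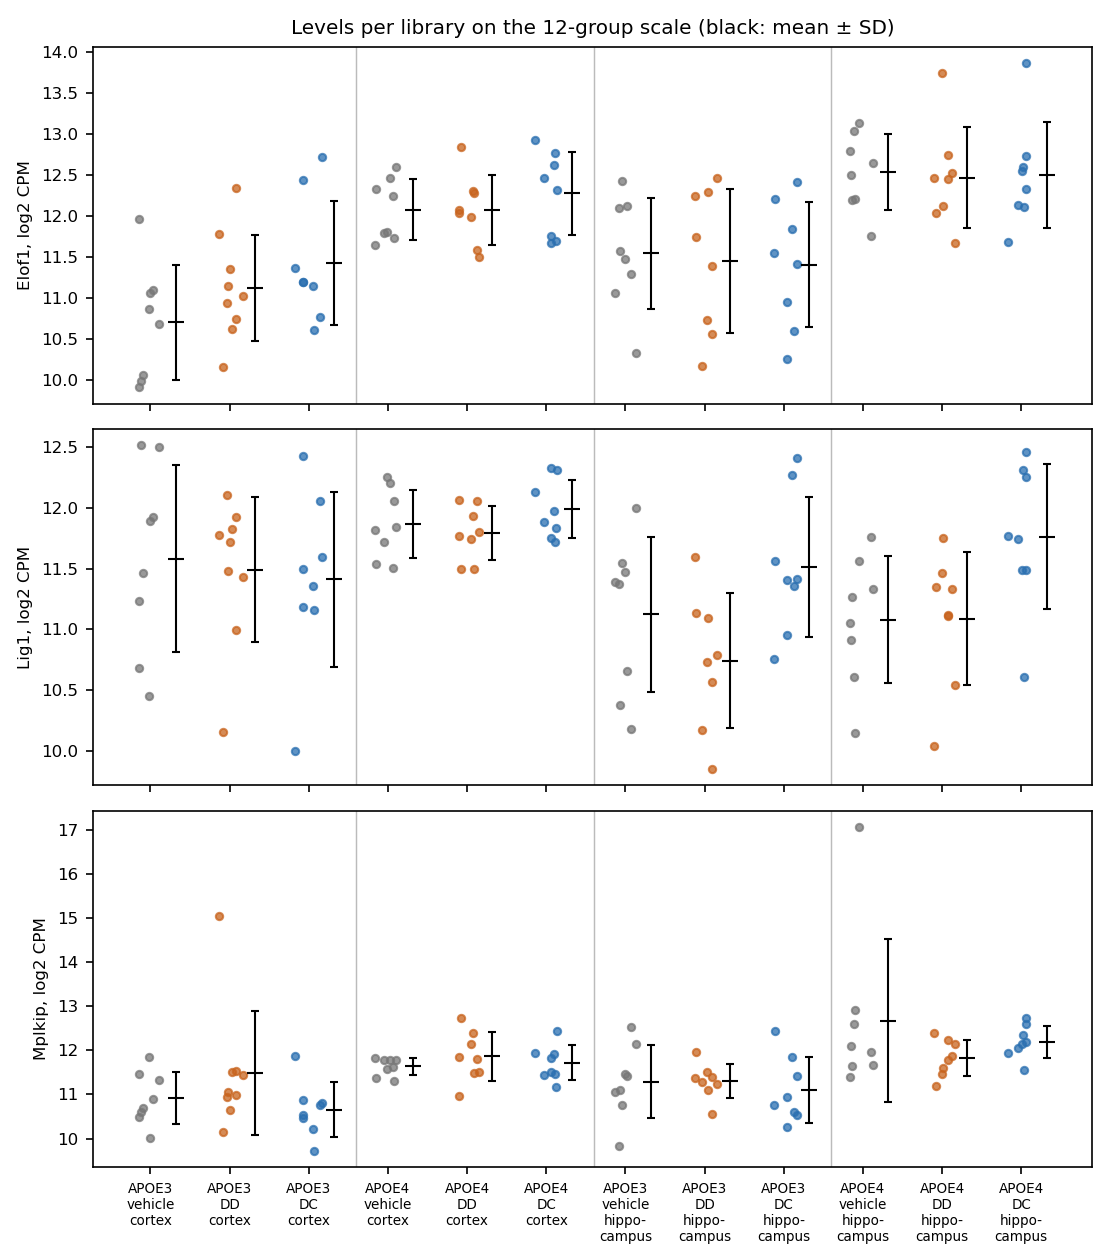
Level of each gene per library (points) in the 12 groups, as log2 CPM of the tested genes with a prior count of 2; black marks are group means with SD, and grey, orange and blue are vehicle, DD and DC. The means of the APOE4 groups lie above those of the APOE3 groups for Elof1, with overlapping points, and 2 Mplkip libraries, at 17.1 and 15.045, lie far above the rest of their groups.

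Mplkip values were shaped by 2 libraries. APOE4 vehicle hippocampus 3 held 484 Mplkip counts, while the other 7 libraries of its group held 4, 8, 8, 11, 13, 16 and 22. That was 80.7 times the median of the other hippocampus libraries and 10.8% of the tested-gene counts of the library. The neighbouring well of the same group, APOE4 vehicle hippocampus 4, held 8. Its total of 56702 and negative probe value of 2.17 lay within the range of its group. In APOE3 DD cortex 2, Mplkip was at 44 counts with a total of 24699, while the other 8 libraries held 1, 2, 3, 9, 10, 11, 16 and 20; the neighbouring well, APOE3 DD cortex 1, held 2.

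The libraries differed in what else stood out. In APOE4 vehicle hippocampus 3, 30 genes, Mplkip among them, made up at least 5 times as large a share of the library as in any other hippocampus library, with at least 50 counts each. By raw counts, 3 of them were at least 5 times as high as in any other hippocampus library, Apol7a with 1027, Dennd11 with 865 and Las1l with 492. Mplkip, at 4.99 times the next highest count, fell just short of that mark. The next library by this measure was APOE4 vehicle hippocampus 6, with 15 genes. In APOE3 DD cortex 2, 0 genes met either measure, Mplkip being below the 50 counts that the rule asks for.

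**Figure D3:**
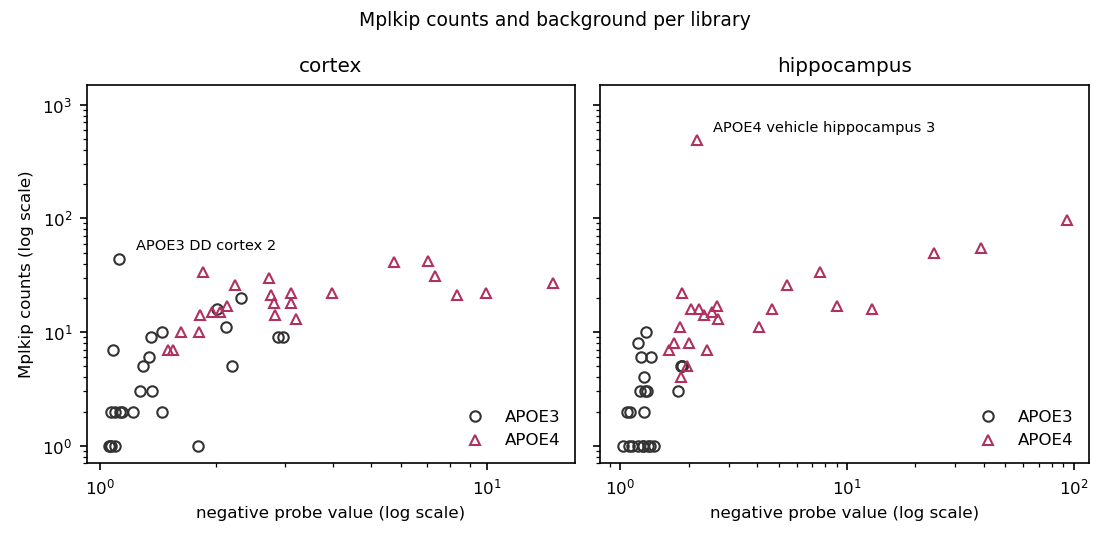
Mplkip counts against the negative probe value of the same library (both log scales) in cortex and hippocampus; circles are APOE3 and triangles APOE4 libraries. Counts run with the negative probe in most libraries, while APOE4 vehicle hippocampus 3 (484 counts) and APOE3 DD cortex 2 (44 counts) stand above libraries of like background.

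In APOE4 hippocampus, where Mplkip had been chosen, the values against vehicle were log2 -2.74 (SE 0.53) after DD and -1.91 (SE 0.48) after DC. Without APOE4 vehicle hippocampus 3 they were -0.44 (95% interval -0.99 to 0.12) and 0.40 (-0.11 to 0.91), of opposite sign. Of the other treatment differences of Mplkip none passed: after DD and DC they were log2 -0.05 (SE 0.95) and 0.03 (SE 1.06) in APOE3 hippocampus, and 0.31 (SE 0.36) and 0.05 (SE 0.36) in APOE4 cortex. After DC in APOE3 cortex the value was -0.34 (SE 0.66). After DD in APOE3 cortex it was 1.08 (SE 0.52, edgeR adjusted p = 0.462, the only one with an unadjusted p under 0.05), and 0.22 (SE 0.34) without APOE3 DD cortex 2.

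The genotype differences of Mplkip had smaller errors without these libraries, since the fit shares 1 estimate of the spread over all groups of a region. With all libraries, Mplkip was higher in APOE4 by log2 0.84 (SE 0.52) with vehicle, 0.07 (SE 0.36) with DD and 1.23 (SE 0.50) with DC in cortex, with edgeR adjusted p = 0.254, 0.987 and 0.0601. Leaving out both libraries, a step chosen after their Mplkip values were seen, gave log2 0.84 (SE 0.31), 0.93 (SE 0.24) and 1.23 (SE 0.31), with edgeR adjusted p = 0.0378, 0.00146 and 0.00161. In hippocampus the values went from log2 3.30 (SE 0.65) to 0.99 (SE 0.35) with vehicle, from 0.61 (SE 0.79) to 0.60 (SE 0.35) with DD and from 1.35 (SE 0.84) to 1.36 (SE 0.38) with DC. The vehicle contrast is one through which the gene was chosen, and the DD and DC contrasts hold the APOE4 libraries of such contrasts, so no test of them without the outlying libraries is read here. As for Elof1, these values move with the plate, the depth and the negative probe, whose part was not tested.

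**Figure D4:**
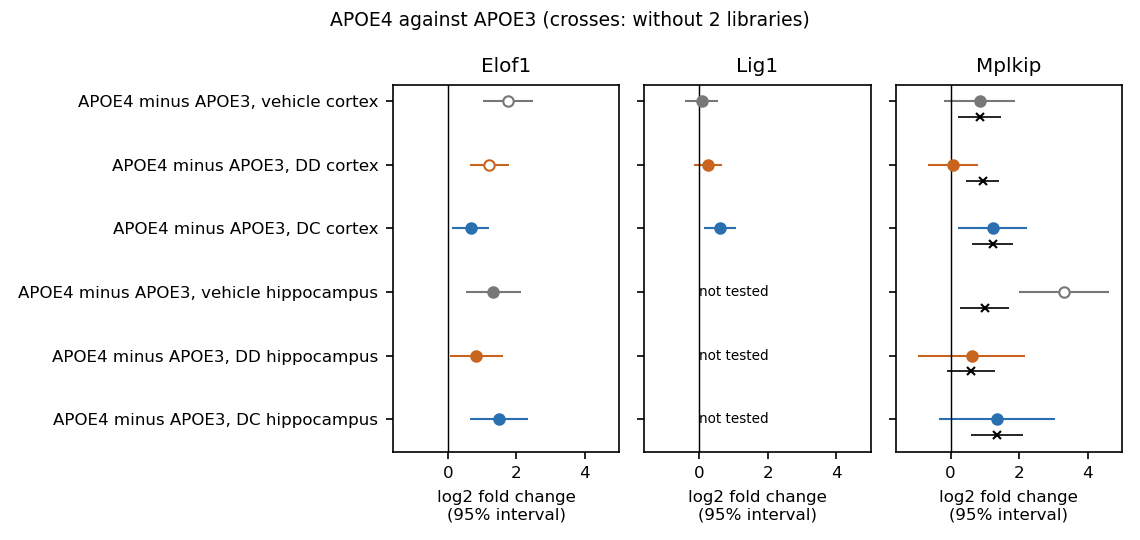
Log2 fold change of APOE4 over APOE3 with its 95% interval for each treatment and region; open points are contrasts through which the gene was chosen, and black crosses give Mplkip without APOE4 vehicle hippocampus 3 and APOE3 DD cortex 2. All Elof1 points lie above 0, and the Mplkip values without the 2 libraries lie between 0.60 and 1.36.

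Taking the 3 genes over the regimens, 0 of the 16 differences from vehicle that were open to a test passed edgeR's quasi-likelihood test; 1 had an unadjusted p under 0.05, and DESeq2 called 0. The share of all genes called in those comparisons was, in cortex, 3.51% for DD and 12.3% for DC in APOE3 and 12.3% for DD and 1.75% for DC in APOE4. In hippocampus it was 2.63% and 21.1% in APOE3 and 5.26% and 21.1% in APOE4. Between genotypes, 3 of 12 passed (6 at an unadjusted p under 0.05), the Elof1 and Lig1 results above. The Elof1 direction among them was partly fixed by the filter. Over all genes 21.1% (vehicle), 21.1% (DD) and 24.6% (DC) were called in cortex and 39.5%, 7.89% and 21.1% in hippocampus. The members' share thus lies near the background. The difference of a drug effect between genotypes passed in 0 of 6 tests by edgeR, with 0 at an unadjusted p under 0.05 and 0 called by DESeq2; over all genes 0% (DD) and 3.51% (DC) were called in cortex and 0% and 5.26% in hippocampus.

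**Figure D5:**
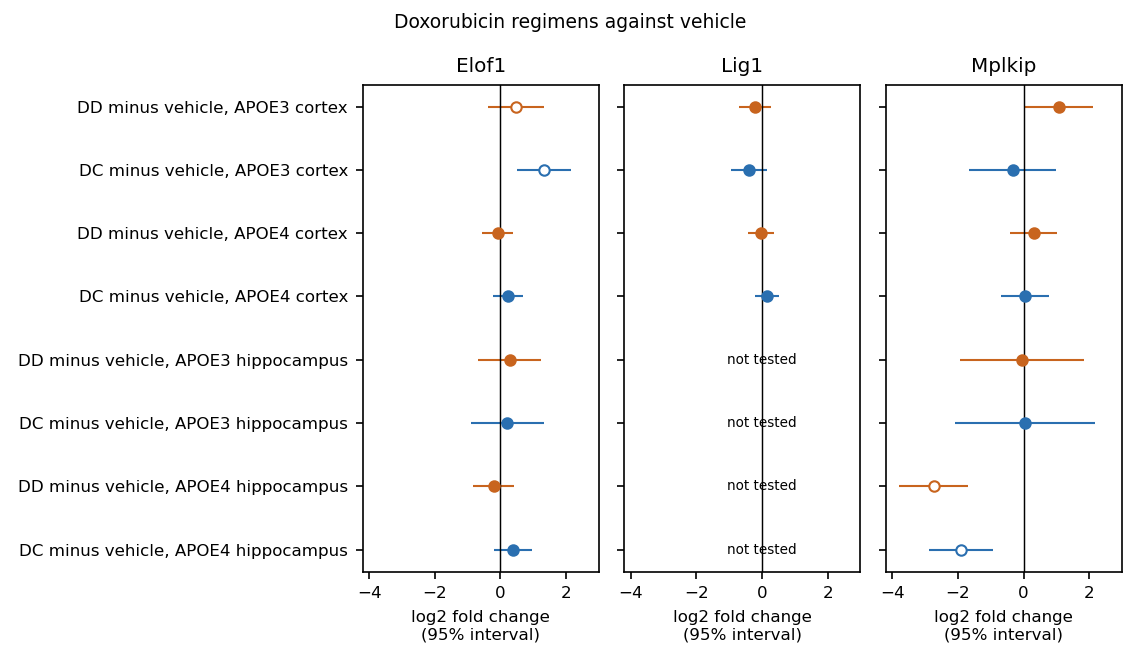
Log2 fold change of each regimen over vehicle with its 95% interval, in orange for DD and blue for DC; open points are contrasts through which the gene was chosen, and Lig1 was not tested in hippocampus. The intervals of all 16 filled points but 1, Mplkip after DD in APOE3 cortex, include 0.

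Both regimens hold the same doxorubicin dose, so DD against DC compares the partner drugs docetaxel and cyclophosphamide at the doses given. Of 10 such differences 0 passed by edgeR, 3 had an unadjusted p under 0.05 and DESeq2 called 2. The DESeq2 calls include Mplkip in APOE4 hippocampus. DESeq2 can replace outlying counts at its default settings, so that call may not rest on all the values and is not read. By edgeR, over all genes 0% were called in APOE3 cortex, APOE4 cortex and APOE3 hippocampus and 10.5% in APOE4 hippocampus. In APOE3 cortex, Elof1 was lower with DD than with DC by log2 -0.85 (SE 0.33, edgeR adjusted p = 0.167), and by -0.24 (SE 0.37) without APOE3 DC cortex 5. Mplkip there was at log2 1.42 (SE 0.53, edgeR adjusted p = 0.167), and 0.55 (SE 0.35) without APOE3 DD cortex 2. In APOE4 hippocampus, Elof1 was at -0.59 (SE 0.28, edgeR adjusted p = 0.17) and turned to 0.54 without the libraries of high background. Mplkip there was at -0.83 (SE 0.55, edgeR adjusted p = 0.324), with 8 of 8 DD libraries below the DC mean. Without both libraries in which Mplkip stands apart, a step chosen after their values were seen, it was -0.84 (SE 0.23). Both groups belong to contrasts through which Mplkip was chosen, so no test of that value is read. Scaled to the negative probe the Mplkip difference turned to 0.99.

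Ordered by mean log2 CPM, all 6 APOE4 groups ranked above all 6 APOE3 groups for Elof1, from 12.5 (SD 0.46) in APOE4 vehicle hippocampus to 10.7 (SD 0.70) in APOE3 vehicle cortex. The same split held for Mplkip, from 12.7 (SD 1.85) in APOE4 vehicle hippocampus to 10.7 (SD 0.62) in APOE3 DC cortex. Without APOE4 vehicle hippocampus 3 that group was at 12.04 (SD 0.55), below APOE4 DC hippocampus at 12.19 (SD 0.37), and the split by genotype still held. For Lig1 the 3 APOE4 cortex groups ranked highest, led by APOE4 DC cortex at 11.99 (SD 0.24), and APOE3 DD hippocampus lowest at 10.7 (SD 0.56). In each order every step between neighbouring groups was smaller than the pooled SD within groups (0.64, 0.55 and 0.83 for Elof1, Lig1 and Mplkip), so neighbours are not told apart.

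Elof1 was higher in hippocampus than in cortex by a mean of log2 0.50 (SE 0.15) and Mplkip by 0.70 (SE 0.29), values that include groups used in their choice. Without APOE4 vehicle hippocampus 3 the Mplkip value was 0.31 (SE 0.19), and after summing neighbouring wells of a group the Elof1 value was 0.11 (SE 0.16) and the Mplkip value 0.33 (SE 0.33). Both turned negative when scaled to the negative probe (-0.49 and -0.50), beside a median of -1.10 over the genes tested, so each was high relative to the other tested genes and not relative to background. Of the 10 region tests of these genes within a pair of groups that were open to a test, 0 passed by edgeR and 0 had an unadjusted p under 0.05, while DESeq2 called 1, Mplkip in APOE3 DD (log2 -1.29, adjusted p = 0.0467). Without both libraries in which Mplkip stands apart, Mplkip in APOE4 DC was at 0.65 (SE 0.21), against 0.63 (SE 0.45) with them. No test of the value without them is read. Over all genes the share called between regions was, for vehicle, DD and DC, 51.7%, 58.6% and 51.7% in APOE3 and 56.9%, 62.1% and 62.1% in APOE4, and 84.5% for the mean of the 6 pairs.

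Across libraries Elof1 and Mplkip ran together, with a Spearman rho of log2 CPM of 0.54 over 49 cortex and 0.55 over 48 hippocampus libraries. In cortex the genes most like Elof1 were Cyp2d12 (0.66), Rgs19 (0.55) and Mplkip, and those most like Mplkip were Rgs19 (0.61), Cyp2d12 (0.59) and Elof1. In hippocampus Elof1 was followed most closely by Inhbb (0.60), Mplkip and Cyp2d12 (0.49), and Mplkip by Elof1, Cyp2d12 (0.49) and Inhbb (0.45). Lig1 was closest to Rhov (0.51), Rgs19 (0.38) and 2610528J11Rik (0.30) in cortex, and had a rho of 0.20 with Elof1 and 0.19 with Mplkip. The points share their libraries, depth, plates and groups, and the values describe these libraries only.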

How the data were processed

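The authors deposited expected counts per probe target for 97 GeoMx whole-transcriptome libraries, not scaled to depth; the submitters' processing notes name the mm10 build, and which software counted the tags is not given in the sources used here. Its table holds 19962 genes and 1 negative probe, and its lowest value was 1 in 94 libraries. The negative probe was kept out of library sizes and tests. Libraries were grouped by the genotype, treatment and region in the labels.

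Values were rounded and fitted with edgeR 4.0.16 (R 4.3.3): TMM scaling, filterByExpr with a minimum count of 10, quasi-likelihood F test, p adjusted by Benjamini and Hochberg over all genes tested, threshold 0.05. The 6 groups of a region shared 1 fit, with 57 genes in cortex and 38 in hippocampus, and region contrasts came from 1 fit of all 12 groups with 58 genes. Standard errors were derived from the F statistic and 95% intervals from its t distribution. For some Lig1 contrasts edgeR gave a larger p than that F statistic implies. Between genotypes in vehicle cortex, for example, Lig1 had log2 0.07 (SE 0.24) with an edgeR unadjusted p = 0.989. Log2 CPM used a prior count of 2. The scripts were tested on simulated data. The alternatives were DESeq2 1.42.0, upper-quartile scaling, no low-count filter, 1 subtracted from every value, sums over runs of neighbouring wells (49 runs, 48 with 2 libraries), the run as a random block (voom and duplicateCorrelation in limma 3.58.1), leaving out libraries with a negative probe of 5 or more, and leaving out each library. DESeq2 ran at its default settings, which can replace counts flagged as outlying in groups of this size. Scaling to the negative probe (limma) and leaving out both libraries in which Mplkip stands apart were chosen after seeing the data.

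The 3 genes, the gene lists and the marker lists were chosen with earlier results of these data known. The genes named are the 3 members and, for each, the 3 genes with the highest Spearman rho among the genes tested in a region. Of each pathway list, the members that passed the filter are named, and up to 2 of its other genes with the highest ratio to the negative probe. Of the marker lists some genes are given. Genes named as high in a single library were chosen after their values were seen. Intervals and lowest values cover these regions only, and PCR-amplified tags limit the precision at low counts. Symbols and coordinates come from RefSeq's GRCm38.p6 table, in which all 3 members matched.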

Additional observations from a re-analysis of the deposited data

Results flagged for a closer look

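Mplkip in APOE4 vehicle hippocampus 3 was at 484 counts, while the other 7 libraries of the group lay at 4 to 22. On the log2 CPM scale its gap to the next library was 0.733 of the whole range of the group, above Dixon's 95% critical value of 0.526 for 8 samples. Mplkip in APOE3 DD cortex 2 was at 44 counts, while the other 8 lay at 1 to 20, with a gap of 0.718 of the range against a critical value of 0.493 for 9 samples. These were the 2 flags among the 36 combinations of gene and group; chance flags about 1 in 20 groups. Outlying Mplkip libraries were known from earlier results of these data, so the ratios describe them and are no independent test. Their source was not tested.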

How the results depend on the processing

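No paired analysis was possible because the labels give no replicate numbers and tie no region to an animal; the numbers used here follow accession order.

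All values are log2 differences. Elof1, APOE4 minus APOE3: in DC hippocampus the call ended with no low-count filter (0.84), scaled to the negative probe (0.91) and without high-background libraries (0.34); in vehicle hippocampus it ended with no filter (1.24), where p is adjusted over all genes. In DD hippocampus it gained a call scaled to the negative probe (1.66), and in DC cortex with 1 subtracted (0.80); leaving out single libraries the DC cortex value ranged from 0.53 to 1.28, called in 5 of 16. Elof1, DC minus vehicle in APOE4 hippocampus, turned negative with no filter (-1.16), scaled to the negative probe (-1.27) and without high-background libraries (-0.86), and DD minus DC there turned positive (1.14, 1.36 and 0.54). Elof1, hippocampus minus cortex, turned negative with no filter and on the negative probe scale for the mean of 6 pairs (-0.46 and -0.49) and in APOE4 DC (-1.46 and -1.45), and in APOE3 DD on the latter (-0.60).

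Lig1, APOE4 minus APOE3 in DC cortex, lost its call with sums over runs (0.57), DESeq2 (0.51), no filter (1.08), the run as a random block (0.53), negative probe scaling (1.00), upper-quartile scaling (0.55) and without high-background libraries (0.58), and ranged from 0.51 to 0.71 over single libraries.

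Mplkip, APOE4 minus APOE3, gained a call in DC cortex with 1 subtracted (1.64) and on the negative probe scale (1.68), and ranged from 1.10 to 1.48 over single libraries. In DC hippocampus it was 1.30 with DESeq2. Without both outlying libraries it was 1.23 in DC cortex, 0.84 in vehicle cortex and 1.36 in DC hippocampus. In DD cortex it was 0.93 without them (-0.14 to 0.93 over single libraries). No test of the values without them, or of the DESeq2 value, is read. In vehicle hippocampus it moved to 0.97 with DESeq2, 1.74 with the random block, 1.75 on the negative probe scale and 0.99 without both libraries, and ranged from 0.99 to 3.57. DC minus vehicle in APOE4 hippocampus was 0.41 with DESeq2, -3.77 with no filter, -0.37 with the random block and 0.40 without both libraries (-2.08 to 0.40 over single libraries). DD minus vehicle there was -0.41 with DESeq2, -1.18 with the random block, -0.72 on the negative probe scale and -0.44 without both (-2.90 to -0.44). DD minus DC there turned to 0.90 with no filter and 0.99 on the negative probe scale. It was -0.82 with DESeq2 and -0.84 without both libraries, and no test of either value is read. Hippocampus minus cortex turned negative with no filter and on the negative probe scale for the mean of 6 pairs (-0.21 and -0.50) and in APOE4 DC (-1.09 and -1.16). In APOE4 DC it gained a call with upper-quartile scaling (1.00). Without both libraries it was 0.65 there, of which no test is read.

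Negative probe scaling moved the median of all tested genes by more than 0.1 in most contrasts, for example to -1.44 for DC minus vehicle in APOE4 hippocampus. The fit with no low-count filter moved it too, to -0.97 in that contrast. The causes were not tested. Low counts, often at the lowest value of 1 in APOE3 libraries, limit all of these values.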
